A study of Homo sapiens with 3 samples.

Results

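RNA-poor barcodes with rich chromatin are droplet barcodes that carried many transposition counts in accessible chromatin but few RNA molecules. A barcode was a member with 300 to under 1000 RNA molecules (unique molecular identifiers, UMIs), at least 1000 counts in chromatin peaks and at most 20% of its UMIs from mitochondrial (MT-) genes. Of 651860 barcodes in the deposited matrix, 12178 met this rule. They made up 47.4% (95% Clopper-Pearson interval 46.8 to 48.0) of the 25701 barcodes with at least 1000 peak counts. They were compared with the 8913 barcodes (34.7%) that met the same chromatin and mitochondrial limits with at least 1000 UMIs, called comparison barcodes here. Of the rest, 950 barcodes had under 300 UMIs, while 1443 with 300 to under 1000 UMIs and 2217 with more exceeded the mitochondrial limit.

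The study measured gene expression and accessible chromatin from the same cells of NCI-H226, a mesothelioma line without the Hippo pathway tumour suppressor NF2, and of NCI-H226_CL3, a resistant clone derived from it. NCI-H226_CL3 had been grown in the TEAD inhibitor GNE7883 at concentrations raised from 0.25 to 3 µM, and it is a single clone. Both lines were given GNE7883 or DMSO, marked with 4 hashtag antibodies, pooled and permeabilised with digitonin as whole cells before transposition, and 3 libraries were made for expression, accessibility and hashtags. The files used here do not link barcodes to hashtags. All barcodes therefore form 1 pooled sample, no line or treatment could be compared, no p-value was computed, and every interval is a 95% interval for counting error only, without a correction for how many genes or peaks were tested.

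In this assay a droplet captures both the RNA and the transposed DNA of a cell under the same barcode, so the readouts can differ in depth for the same cell. Some RNA stays in the nucleus, such as MALAT1 and NEAT1 or unspliced transcripts of long genes, while mRNAs of ribosomal and respiratory chain proteins are mostly cytoplasmic. RNA released from broken cells is free in the suspension and enters every droplet, whether or not it holds a cell. That free RNA makes up a larger part of a barcode with few UMIs of its own.

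The members held 7962163 UMIs, or 14.6% of the UMIs in the matrix, and 34996514 peak counts, or 29.7% of the peak counts. The rule used UMIs, peak counts and mitochondrial share, so these are given as a description. A member had a median of 649.5 UMIs (quartiles 505 and 804) from 459 genes, against 1524 UMIs (1205 and 2174) from 912 genes in a comparison barcode. The median peak count was 2373 (quartiles 1577 and 3616) in 1246 peaks, against 4034 (2183 and 7031) in 2097 peaks. Members thus had 0.258 UMIs per peak count at the median and comparison barcodes 0.398. The median mitochondrial share was 11.1% in members and 13.9% in comparison barcodes. Over the mitochondrial limit were 10.6% of barcodes with 300 to under 1000 UMIs (10.1 to 11.1, of 13621) and 19.9% of those with at least 1000 UMIs (19.2 to 20.7, of 11130), all with at least 1000 peak counts.

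Members were most frequent among the barcodes with fewer peak counts. Of members and comparison barcodes together, members were 71.4% of those with 1000 to under 2000 peak counts, 68.5% from 2000, 59.8% from 3000, 34.1% from 5000 and 6.31% (5.01 to 7.82) from 10000 upwards. Even so, 77 members had 10000 or more peak counts, with a median of 772 UMIs against 2496 in comparison barcodes of that depth. Across barcodes, log UMIs and log peak counts correlated with Pearson's r = 0.179 over the 12178 members and 0.390 over the 8913 comparison barcodes. Both values describe barcodes of a single library, and the limits on UMIs and peak counts narrow the range of each. The matrix held 232087 barcodes with both UMIs and peak counts.

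**Figure D1:**
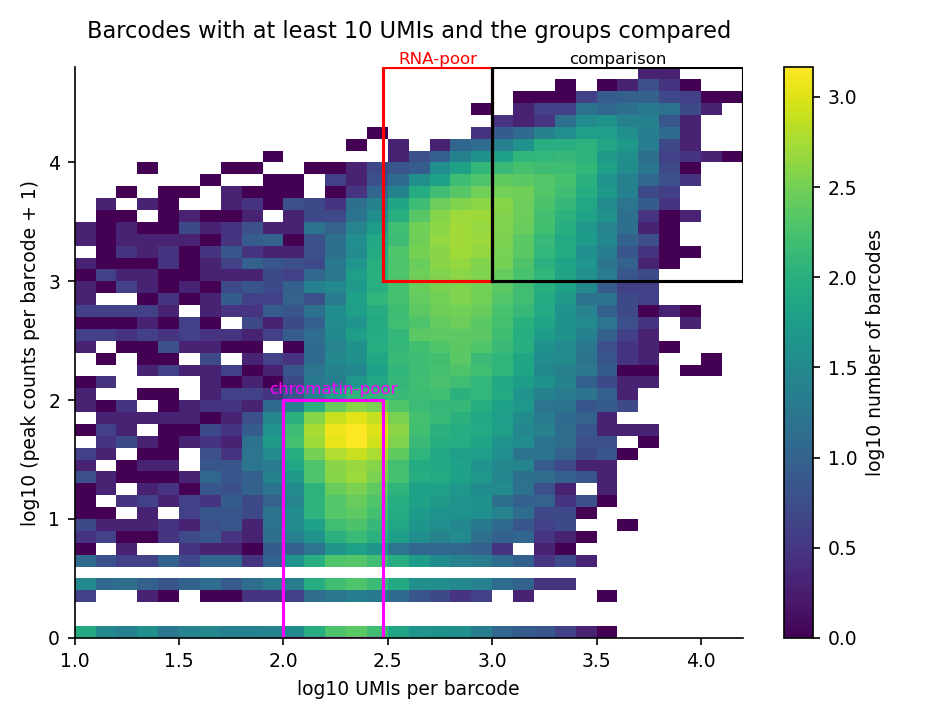
Number of barcodes (colour, log10) by UMIs per barcode (horizontal axis, log10) and peak counts per barcode plus 1 (vertical axis, log10), for barcodes with at least 10 UMIs. The limits of the RNA-poor barcodes lie across the left part of a single dense region that runs on into the comparison barcodes, and the chromatin-poor barcodes, with a median of 206 UMIs, form a separate dense region below; the boxes show the UMI and peak limits only, before the mitochondrial limit.

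The UMI limit cut through a continuous range. The 1405 members with 900 to under 1000 UMIs had 53681 CPM of MALAT1 and 169254 CPM of cytosolic ribosomal protein genes, and the 1200 comparison barcodes with 1000 to under 1100 UMIs had 53839 and 168630 CPM. CPM is here the UMIs of a gene summed over barcodes, per 1000000 summed UMIs without MT- genes. At the lower limit, the 1184 members with 300 to under 400 UMIs had 37110 CPM of MALAT1 and 201658 CPM of ribosomal protein genes. The 563 barcodes just outside, with 200 to under 300 UMIs, had 32223 and 217734 CPM. Median peak counts were 2806 and 2904 on the 2 sides of the upper limit and 1907 and 1773 on the 2 sides of the lower one.

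The RNA of the members held markers of the line, at levels that do not tell a cell's own RNA from free RNA. The mesothelial markers summed to 12885 CPM in members and 13639 CPM in comparison barcodes, and to more, 16966 and 16604 CPM, in 2 sets of barcodes with under 100 peak counts, those under 100 UMIs (free RNA) and those with 100 to under 300 UMIs (chromatin-poor barcodes). Most of this came from the keratins KRT18 (4663 and 4830 CPM), KRT8 (2688 and 2927 CPM), KRT7 (1953 and 2123 CPM) and KRT19 (1886 and 2026 CPM). CALB2, the calcium-binding protein calretinin used to identify mesothelium, stood at 947 CPM in members against 897 CPM, MSLN (mesothelin) at 73.3 against 91.8 CPM and the transcription factor WT1 at 71.1 against 79.6 CPM. Of the 11 mesothelial markers compared, 10 had a ratio below 1, beside 4637 of all 6994 compared genes. An interval below 1 was found for 7 (18.7% of all compared genes) and above 1 for 1 (7.72%). Their median log2 ratio was −0.12, and none differed by 1.5-fold. The 14 immune markers summed to 5.11 CPM in members and 3.51 CPM in comparison barcodes, with 6 of them without a UMI in either group. The endothelial markers summed to 28.7 against 33.4 CPM and the epithelial and squamous markers to 6.96 against 8.62 CPM. Fibroblast and smooth muscle markers summed to 149 against 187 CPM (113 CPM in chromatin-poor barcodes), of which COL1A1, the collagen I chain, had 89.7 and 125 CPM and ACTA2, smooth muscle actin, 27.97 and 30.9 CPM.

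Summed over barcodes, expression in the members was close to that of the comparison barcodes. The 6994 genes compared had 100 or more UMIs in the 2 sums together and a mean of the 2 CPM values of 20 or more. Of these, 8 were at least 1.5-fold higher in members with an interval above 1 (0.114% of the genes compared), and 8 were at least 1.5-fold lower with an interval below 1 (0.114%). At 2-fold the count was 0 in both directions. The median log2 ratio was −0.05, its quartiles were −0.14 and 0.03, and the 5th and 95th percentiles were −0.30 and 0.21. The ratio was below 1 for 4637 of the 6994 genes. The interval lay above 1 for 7.72% of compared genes and below 1 for 18.7%.

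The 8 genes higher in members included 3 histone genes and 2 noncoding RNAs. AC012447.1, an RNA antisense to CLASP1 by its current name, had 75.8 CPM in members and 39.3 CPM in comparison barcodes, a ratio of 1.93 (1.71 to 2.17). RMRP, the noncoding RNA of the ribonuclease MRP, had 64.9 against 35.6 CPM, a ratio of 1.83 (1.61 to 2.08). LRRC75A, a leucine-rich repeat gene, had 105 against 58.2 CPM, a ratio of 1.80 (1.63 to 1.99). The mRNAs of replication-dependent histone genes end in a stem-loop and carry no poly(A) tail. HIST1H3B (histone H3) had 36.9 against 21.03 CPM and a ratio of 1.76, HIST2H2AC (histone H2A) 40.9 against 23.6 CPM and 1.74, and HIST1H4C (histone H4) 344 against 227 CPM and 1.52. The remaining higher genes were MT1X, a metallothionein that binds zinc and copper, with 48.7 against 31.6 CPM and a ratio of 1.54 (1.34 to 1.78), and RPL39, a protein of the large ribosomal subunit, with 3106 against 2050 CPM and a ratio of 1.52 (1.49 to 1.54). Of the 11 histone genes in the list compared, HIST1H4C alone passed 1.5-fold, HIST1H1C came next (98.3 against 66.8 CPM, ratio 1.47), and the median log2 ratio was 0.00. Histone genes and RPL39 have near-identical copies, and no source used here says whether the counting used strand, so values for these genes and for antisense RNAs are uncertain.

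The 8 genes lower in members lay between 24.2 and 60.3 CPM in comparison barcodes. In members ATP13A1, TCIRG1, ICOSLG, SDC1 and CSK were under the CPM floor, at 15.3 to 18.3 CPM. The floor applied to the mean of both groups, so these genes were compared only because of their level in comparison barcodes. ATP13A1, a P-type ATPase of the endoplasmic reticulum membrane, had 15.6 CPM in members and 25.9 CPM in comparison barcodes and was 1.66-fold lower (1.34 to 2.07). TCIRG1, a subunit of the vacuolar proton pump, was 1.61-fold lower (15.3 against 24.7 CPM), as were ICOSLG, a T-cell costimulatory ligand (18.3 against 29.5 CPM), and MGAT1, a Golgi enzyme of N-glycan synthesis (21.7 against 34.9 CPM). The heparan sulfate proteoglycans GPC1 (glypican 1) and SDC1 (syndecan 1) were 1.59-fold and 1.53-fold lower, at 37.9 against 60.3 CPM and 17.3 against 26.4 CPM. CSK, the kinase that inhibits SRC, was 1.52-fold lower (15.9 against 24.2 CPM), and APOL1, an apolipoprotein, was 1.52-fold lower (25.8 against 39.3 CPM). The interval of each of the 8 lay below 1.

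**Figure D2:**
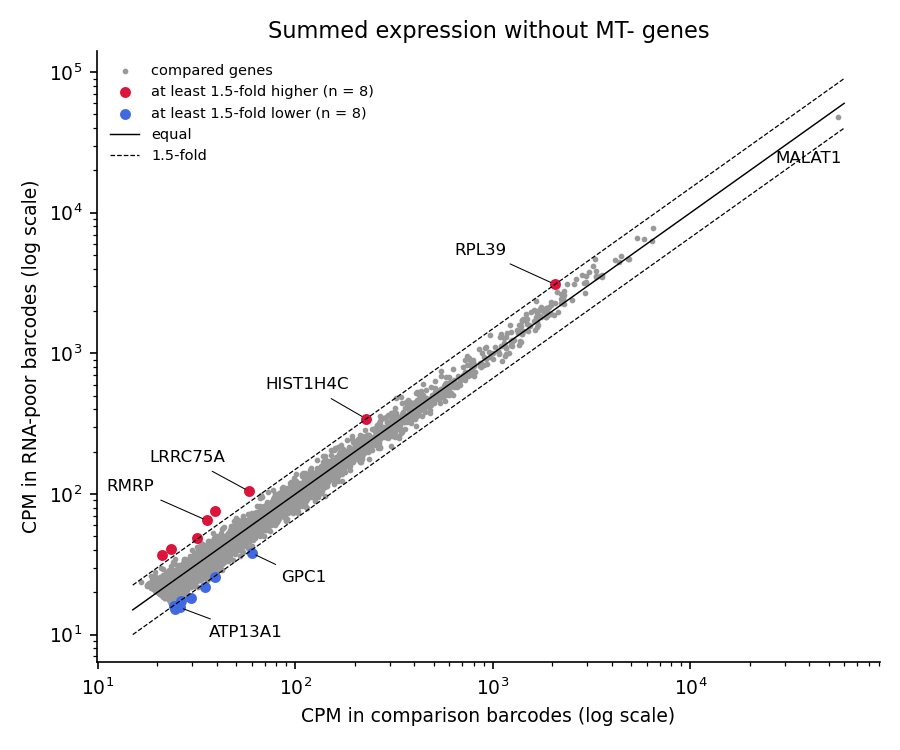
CPM of the 6994 compared genes summed over RNA-poor barcodes (vertical axis) against comparison barcodes (horizontal axis), both on log scales, with lines at equality and at 1.5-fold. The 8 higher (red) and 8 lower (blue) genes stand at the edge of a narrow band, and MALAT1 lies below the line of equality.

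Chromatin at the starts of these genes differed little. Peaks within 1000 bases of a start of LRRC75A held 11.8 of every 1000000 peak counts in members and 9.17 in comparison barcodes, a ratio of 1.29 (1.06 to 1.56). For the other 7 genes with higher RNA the ratio ran from 0.926 (HIST1H3B, 0.798 to 1.07) to 1.07 (RPL39, 0.910 to 1.26), and each interval included 1. Among the genes with lower RNA, CSK had a ratio of 0.886 (0.785 to 0.999). The other 6 with a peak ran from 0.866 (APOL1, 0.669 to 1.12) to 1.02 (MGAT1, 0.912 to 1.14) with intervals that included 1, and ICOSLG had no peak within 1000 bases.

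The bases just before the gene start are shown for the 4 of 8 higher genes found in the RefSeq promoter table (build GRCh38.p14), because their RNA differed while the accessibility of their starts did not differ beyond counting error. Each sequence is the 100 bases that precede the start, 5′ to 3′ on the strand of the gene, with the letters TATAAA of the TATA box in capitals. HIST1H3B is H3C2 in RefSeq (chr6:26032100-26032199, minus strand) and HIST2H2AC is H2AC20 (chr1:149886818-149886917, plus strand), with MT1X at chr16:56682370-56682469 on the plus strand and RPL39 at chrX:119791631-119791730 on the minus strand.
HIST1H3B: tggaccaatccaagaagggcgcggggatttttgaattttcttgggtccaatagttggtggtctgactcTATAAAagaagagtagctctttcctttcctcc
HIST2H2AC: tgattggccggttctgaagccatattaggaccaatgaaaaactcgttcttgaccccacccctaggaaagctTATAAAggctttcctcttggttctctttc
MT1X: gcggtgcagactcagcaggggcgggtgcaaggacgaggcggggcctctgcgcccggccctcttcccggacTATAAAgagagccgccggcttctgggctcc
RPL39: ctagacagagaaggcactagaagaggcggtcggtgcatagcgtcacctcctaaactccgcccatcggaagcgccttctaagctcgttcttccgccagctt

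TATAAA began 32, 29 and 30 bases before the start of HIST1H3B, HIST2H2AC and MT1X, and RPL39 held it on neither strand. None of the 7 matched lower genes (ATP13A1, TCIRG1, ICOSLG, MGAT1, GPC1, SDC1 and CSK) held it on either strand. Over all 35116 promoters of the table, 4.99% held TATAAA on either strand in the same 100 bases and 3.51% on the strand of the gene. A match is a description of letters, not of a site in use. AC012447.1, RMRP, LRRC75A, HIST1H4C and APOL1 had no entry.

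As counted, transcripts of ribosomal proteins and of the respiratory chain made up a larger part of the members' RNA. The direction turned when the profile of chromatin-poor barcodes was taken off (ratios of the sums 0.748 and 0.751). That profile is rich in these transcripts and took 34.8% of the members' UMIs outside MT- genes but 12.6% of those of comparison barcodes. A fall in members is therefore built into the step, and its size depends on the amount taken off. The 78 ribosomal protein genes, which build the small and large subunits, summed to 178427 CPM in members and 157262 CPM in comparison barcodes, a ratio of 1.14 (1.13 to 1.14). Of the 78, 69 had a ratio above 1 and 66 an interval above 1, 4 had an interval below 1, and the median log2 ratio was 0.16, beside −0.05 over all compared genes. Over all compared genes, 7.72% had an interval above 1 and 18.7% below 1. Intervals are narrower for genes with more UMIs, so such counts also depend on level. RPS29 had 4720 against 3296 CPM (1.43, 1.41 to 1.45), RPS21 2347 against 1658 CPM (1.42) and RPL26 4197 against 3197 CPM (1.31). RPL3, which lies at the other end of the list, had 1006 against 1207 CPM (0.834, 0.811 to 0.857). RPL39 alone passed 1.5-fold.

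The 41 nuclear-encoded genes of the respiratory chain and ATP synthase summed to 13821 against 11870 CPM, a ratio of 1.16 (1.15 to 1.17). Of these, 30 had a ratio above 1 and 25 an interval above 1 (7.72% of all compared genes). An interval below 1 was found for 1, the median log2 ratio was 0.18 and none passed 1.5-fold. Among them, COX7B of cytochrome c oxidase had 490 against 341 CPM (1.44, 1.373 to 1.499), NDUFA4 743 against 544 CPM (1.37), and ATP5ME of the ATP synthase 606 against 443 CPM (1.37). SDHA, the large catalytic subunit of succinate dehydrogenase, had 39.6 against 43.8 CPM (0.906, 0.784 to 1.04). Translation factors and housekeeping genes had medians of 0.01 and 0.03.

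RNAs that remain in the nucleus were not enriched in the members as counted. MALAT1, the abundant long noncoding RNA of nuclear speckles, had 48218 CPM (48056 to 48380) in members and 55893 CPM in comparison barcodes, a ratio of 0.863 (0.859 to 0.866). NEAT1, the scaffold of paraspeckles, had 4670 against 4911 CPM (0.951, 0.939 to 0.964), PVT1 666 against 703 CPM (0.948) and FTX 547 against 537 CPM (1.02, 0.979 to 1.06). Of the 9 nuclear long noncoding RNAs compared, none had an interval above 1, 4 had an interval below 1 (18.7% of all compared genes), and the median log2 ratio was −0.07. The 16 giant genes compared, whose very long introns yield mostly unspliced reads in nuclei, had a median of −0.06 (3970 against 4091 CPM in sum). In quartiles of genomic span the median log2 ratio was −0.03, −0.06, −0.06 and −0.06 from the shortest to the longest genes, over the 96.7% of compared genes with a RefSeq span. These medians are across genes, which are not independent replicates.

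The lists of secreted proteins and of endoplasmic reticulum chaperones had medians below that of all genes, and no member of either list passed 1.5-fold. Of 26 genes for extracellular matrix and secreted proteins, 24 had a ratio below 1 and 18 an interval below 1, none had an interval above 1, and the median log2 ratio was −0.20. Over all compared genes, 4637 of 6994 had a ratio below 1, 18.7% an interval below 1 and 7.72% an interval above 1. COL1A1 was 1.40-fold lower (89.7 against 125 CPM), COL6A1 of collagen VI 1.34-fold lower (252 against 336 CPM), and SPARC, a collagen-binding matrix glycoprotein, 1.26-fold lower (883 against 1112 CPM). Of 18 endoplasmic reticulum chaperones and translocon genes, 11 had an interval below 1 and 2 above 1, with a median of −0.17. HYOU1 was 1.37-fold lower (28.4 against 39.0 CPM) and HSPA5, the chaperone BiP, 1.22-fold lower (358 against 437 CPM). The 2 with intervals above 1 were the small translocon subunits SEC61G (245 against 193 CPM, ratio 1.27) and SEC61B (207 against 175 CPM, ratio 1.19). All 11 compared genes of the unfolded protein and ATF4 response had a ratio below 1 (4637 of 6994 over all genes), 6 of them with an interval below 1, with a median of −0.18. ATF4, its transcription factor, had 74.0 against 86.1 CPM, a ratio of 0.859 (0.774 to 0.953).

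The pathways under study gave differences of the same small size. YAP and TEAD, the transcription cofactor and DNA-binding factor of the Hippo pathway that GNE7883 acts on, drive the targets listed here. Of 17 YAP/TEAD targets compared, 16 had a ratio below 1 (4637 of 6994 over all genes), 11 had an interval below 1 (18.7% of all genes), none had an interval above 1, none passed 1.5-fold, and the median log2 ratio was −0.15. Against comparison barcodes under 2000 UMIs the median of this list was −0.04, beside −0.03 over all genes compared there. CCN1 (CYR61), a matricellular protein, had 256 against 334 CPM (1.30-fold lower), the receptor tyrosine kinase AXL 104 against 133 CPM (1.28-fold lower), and CRIM1 992 against 1075 CPM (1.08-fold lower). CCN1, CCDC80 and IGFBP3 are in both this list and that of secreted proteins. TEAD1 had 413 against 451 CPM (0.917, 0.877 to 0.958), YAP1 159 against 161 CPM (0.991, 0.921 to 1.06), and the 12 TEAD factors, cofactors and Hippo kinases compared had a median of −0.03. All 6 MAPK output genes compared had a ratio below 1, 1 of them (CCND1, cyclin D1, 193 against 210 CPM) with an interval below 1, and a median of −0.08. That 1 in 6 is near the 18.7% of all compared genes. With the chromatin-poor profile taken off, the median turned to 0.17 for MAPK output genes and to 0.20 for TEAD factors and cofactors. Interferon response, p53 target, S phase and G2/M phase lists had medians between −0.09 and −0.06, near the −0.05 of all compared genes, and none of their members passed 1.5-fold. The interferon-induced RSAD2 came closest, at 36.1 against 52.7 CPM (1.46-fold lower).

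**Figure D3:**
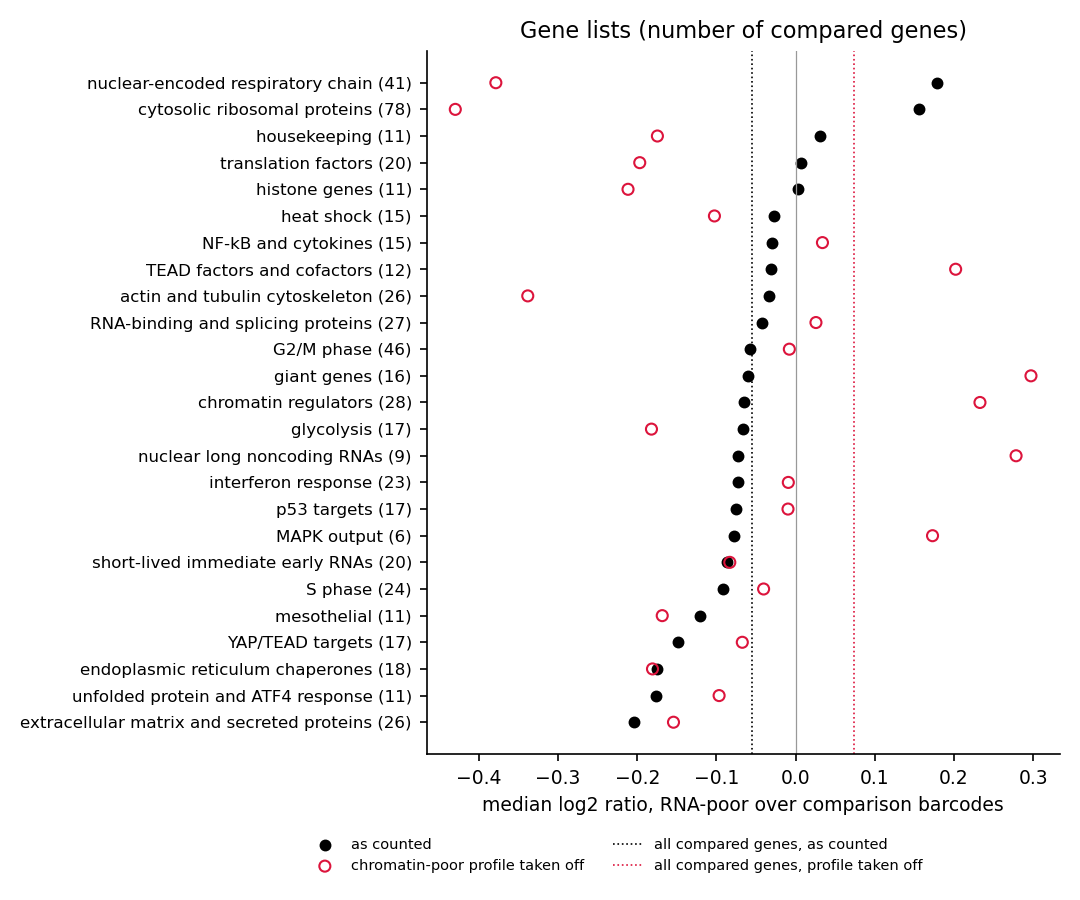
Median log2 ratio of members over comparison barcodes for the gene lists with at least 3 compared genes (number in brackets), as counted (black) and with the profile of chromatin-poor barcodes taken off every barcode (red circles). Dotted lines mark the medians of all compared genes (−0.05 and 0.07). Respiratory chain and ribosomal protein genes are the highest lists as counted and the lowest with the profile taken off, while nuclear RNAs and giant genes are among the highest then. Taking the profile off removes a larger part of the members' UMIs, so lists high in it fall and lists low in it rise by construction.

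The composition of a barcode's RNA changed steadily with its UMIs. Among barcodes with at least 1000 peak counts and at most 20% MT- UMIs, ribosomal protein genes stood at 215220 CPM below 300 UMIs and at 195573, 180853 and 171937 CPM in the members (300, 500 and 700 UMIs upwards). They went on to 164281 CPM from 1000 UMIs, 151879 from 2000 and 142520 from 4000 UMIs. MALAT1 went the other way, from 33494 CPM below 300 UMIs to 58560 CPM from 4000 UMIs. RPL39 stood at 4102 CPM below 300 UMIs, at 3701, 3286 and 2823 CPM in the 3 bins of members, and at 1514 CPM from 4000 UMIs. The order held in all 7 bins for ribosomal protein genes and RPL39, with no step at 1000 UMIs.

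**Figure D4:**
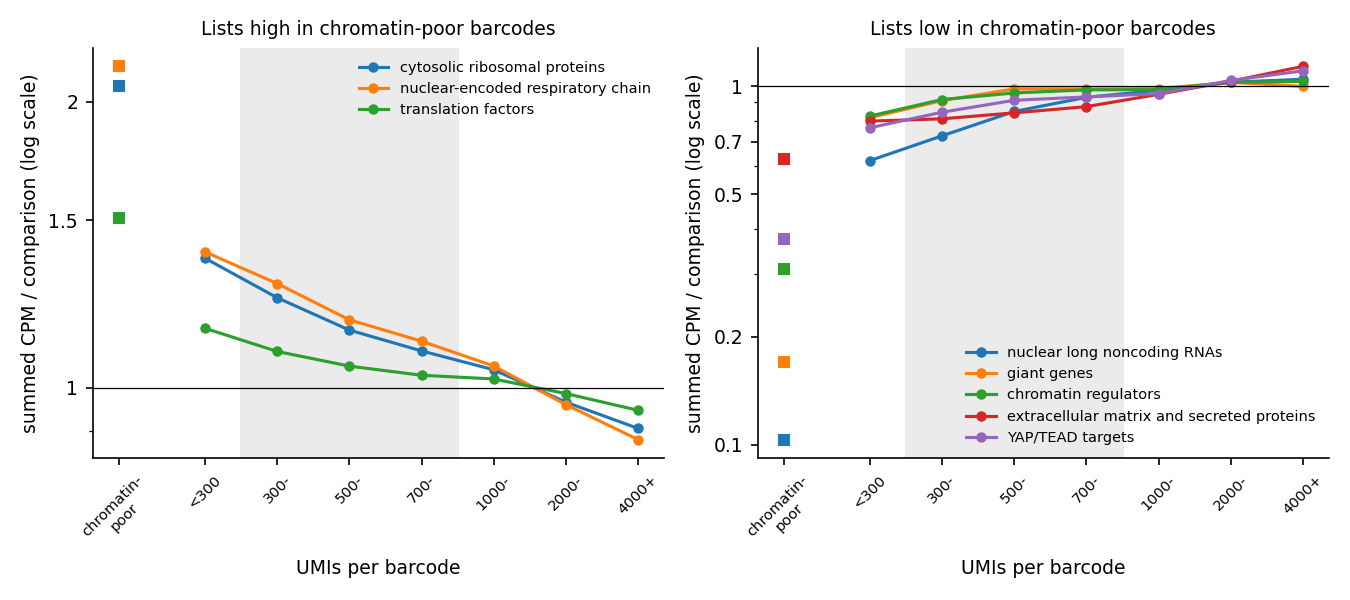
Summed CPM of gene lists by UMIs per barcode, divided by that of all comparison barcodes (log scale), for barcodes with at least 1000 peak counts and at most 20% MT- UMIs; the grey band marks the 3 bins of RNA-poor barcodes. Squares at the left mark the chromatin-poor barcodes, at 326789 CPM of ribosomal protein genes and 6476 CPM of nuclear long noncoding RNAs, and lists shift towards their squares as UMIs decrease.

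Barcodes without a cell's chromatin were measured for the same genes. Barcodes with 1 to under 100 UMIs and under 100 peak counts, 412133 in all, served as free RNA. They had 268969 CPM of ribosomal protein genes and 22924 CPM of MALAT1. Most of them held a single UMI. After the data were seen, a second set was added, the 22854 barcodes with 100 to under 300 UMIs and under 100 peak counts, called chromatin-poor. These had a median of 206 UMIs, 41 peak counts and a mitochondrial share of 1.91%. They held 326789 CPM of ribosomal protein genes, 25865 CPM of respiratory chain genes and 5566 CPM of MALAT1. In 7 of the 8 genes higher in members their CPM was above that of the members, for example 7237 CPM for RPL39 and 771 CPM for HIST1H4C. LRRC75A was the exception, with 53.6 CPM in chromatin-poor barcodes. The free RNA set differed in this. There RPL39 (4891 CPM), MT1X (79.4 CPM) and LRRC75A (124 CPM) were above the members. AC012447.1 (46.2 CPM), RMRP (49.1 CPM), HIST1H3B (28.9 CPM), HIST2H2AC (23.1 CPM) and HIST1H4C (225 CPM) were below them.

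A second estimate took the chromatin-poor profile off every member and comparison barcode, at 201 UMIs outside MT- genes per barcode, the median of the chromatin-poor barcodes. This removed 34.8% of the members' UMIs outside MT- genes and 12.6% of those of comparison barcodes. Lists high in the profile must therefore fall in members and lists low in it must rise, by an amount set by the UMIs taken off. At the median of 201 UMIs, the direction of the ribosomal protein, respiratory chain, nuclear long noncoding RNA, giant gene and chromatin regulator lists turned. MAPK output genes (−0.08 as counted, 0.17 then) and TEAD factors and cofactors (−0.03 and 0.20) also turned. So did RNA-binding and splicing proteins (−0.04 and 0.03) and NF-kB and cytokine genes (−0.03 and 0.03), and histone genes went from 0.00 to −0.21. Translation factors and housekeeping genes turned as well, to −0.20 and −0.17, while glycolysis (−0.07 as counted, −0.18 then) and actin and tubulin genes (−0.03 and −0.34) were below 0 in both. The median log2 ratio of ribosomal protein genes became −0.43 (sums of 99395 and 132911 CPM) and that of respiratory chain genes −0.38, while that of nuclear long noncoding RNAs became 0.28, of giant genes 0.30 and of chromatin regulators 0.23, beside 0.07 over all compared genes. MALAT1 became 70938 against 63122 CPM, a ratio of 1.12, and 1.06 or 1.20 with the lower or upper quartile of UMIs taken off in place of the median. By quartile of genomic span the medians became −0.23, 0.00, 0.14 and 0.24 from short to long genes.

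The lists of secreted proteins and endoplasmic reticulum chaperones kept a median below 0 (−0.15 and −0.18), and that of YAP/TEAD targets was −0.07. The ratio of the sums of YAP/TEAD targets turned, from 0.913 as counted to 1.10. Within that list, long genes such as PTPN14 (1.26), DOCK5 (1.23) and RBMS3 (1.22) had ratios above 1 and CCN1 stood at 0.823. With the profile taken off, 20 genes passed 1.5-fold upwards and 114 downwards. Of the 8 genes called higher as counted, LRRC75A was still called (2.24, 1.99 to 2.53), and of the 8 called lower MGAT1 (0.611), CSK (0.624), ATP13A1 (0.641) and APOL1 (0.653) were. RPL39 and HIST1H4C turned, to 0.694 (0.636 to 0.756) and 0.788 (0.631 to 0.986). With the lower quartile taken off, RPL39 was 0.988 (0.940 to 1.04) and HIST1H4C 1.05 (0.912 to 1.21), with intervals that included 1. The estimate assumes that each droplet received the same amount of RNA with the chromatin-poor profile. That amount was not measured, and 201 UMIs outside MT- genes were taken off each barcode. Within the same chromatin and mitochondrial limits, 874 barcodes had under 300 UMIs. Of these, 563 had 200 to under 300 UMIs, and the rest held fewer UMIs in all than the 201 taken off. Not every droplet with rich chromatin therefore received that amount. Members with 300 to under 400 UMIs had 201658 CPM of ribosomal protein genes, below the 326789 CPM of the profile taken off. A fixed amount can take off more than a shallow barcode received, and the turned directions depend on this assumption. The part of free RNA in the differences was not tested beyond these values.

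Members and comparison barcodes detected nearly equal numbers of genes at equal depth. With each barcode thinned to 300 UMIs outside MT- genes, the median was 253 genes (quartiles 247 and 259) in 11855 members and 254 genes (247 and 259) in the 8913 comparison barcodes. The 323 members with fewer than 300 such UMIs were left out. Without thinning, the medians over the same barcodes were 451 and 899 genes.

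Few single peaks differed between members and comparison barcodes. Of the peak entries 87.9% were even numbers, so every 2 counts were treated as 1 event. Of 91074 peaks with at least 100 events over both sums, 463 (0.508%) were at least 1.5-fold higher in members with an interval above 1 and 462 (0.507%) were lower. The median log2 ratio was 0.00, with 5th and 95th percentiles of −0.33 and 0.33. Of the 7128 peaks with at least 1000 events, a floor added after the data were seen, 2 were higher and 0 lower. The peak with the highest ratio lay at chr3:31878079-31878939 (GRCh38, the build named in the submitters' processing notes), 102361 bases from the nearest gene start, that of OSBPL10. It held 145 counts in members and 72 in comparison barcodes, or 4.14 against 1.49 of every 1000000 (2.77-fold, 1.83 to 4.25). The peak with the lowest ratio, at chr6:16659584-16660482, held 58 against 173 counts and was 2.14-fold lower (1.39 to 3.39). Within 1000 bases of a gene start lay 35 of the 463 higher and 27 of the 462 lower peaks. Both are smaller shares than the 20.0% of all compared peaks (18203 of 91074). Nearly all called peaks had under 1000 events, and peaks at gene starts hold more counts each, so these shares also depend on count level.

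Peaks within 1000 bases of a gene start took 34.3% of the members' peak counts (34.2 to 34.3) and 34.5% (34.4 to 34.5) of those of comparison barcodes. Per barcode the median was 34.4% (quartiles 32.8 and 35.9) in members and 34.5% (32.9 and 36.2) in comparison barcodes. Within all 5 strata of peak counts the members' share was lower with intervals that did not overlap, by small amounts: 34.4 against 34.6% from 1000 peak counts, 34.3 against 34.7% from 2000, 34.3 against 34.5% from 3000, 34.2 against 34.5% from 5000 and 33.4 against 34.3% from 10000. The share of peak counts on each chromosome had ratios between 0.995 (chromosome 17) and 1.01 (chromosome 13).

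Accessible chromatin divided the comparison barcodes into 6 clusters, and each member was given the cluster of most of its 15 nearest comparison barcodes. RNA did not enter. Clusters are numbered by size and are not conditions. Cluster 1 held 52.0% of members (51.1 to 52.9) and 61.7% of comparison barcodes (60.7 to 62.7), and cluster 2 held 22.7% and 19.4%. Cluster 3 held 15.6% of members (15.0 to 16.3; 1899 barcodes) and 7.24% of comparison barcodes (6.71 to 7.79; 645 barcodes), a ratio of 2.16 (1.98 to 2.35). Clusters 4, 5 and 6 held 5.49, 2.76 and 1.503% of members and 7.01, 3.48 and 1.11% of comparison barcodes.

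The ratio of shares for cluster 3 was above 1 at each depth of chromatin. From 10000 peak counts its interval included 1, with 15 of 77 members in the cluster. The ratio was 1.97 (1.62 to 2.38) at 1000 to under 2000 peak counts, 2.92 from 2000, 3.51 from 3000, 2.81 from 5000 and 1.38 (0.855 to 2.22) from 10000. With every barcode thinned to 1000 peak counts it was 1.81 (1.65 to 1.99), and 81.6% of members then received the same cluster as before. Thinned comparison barcodes got their own cluster back in 91.0% of cases. In cluster 3 the comparison barcodes were deeper than over all (medians of 1933 UMIs and 5418 peak counts), and its members had medians of 636 UMIs and 2730 peak counts.

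Genes that led a cluster in the comparison barcodes were mostly higher in the members of that cluster too. The 5 leading genes of each of clusters 1 to 5 were chosen on comparison barcodes alone, and cluster 6 had too few (99). In members, 20 of the 25 genes had an interval above 1 in their cluster against the other clusters, and 17 of these reached 1.5-fold. The share of all genes that would do so in this contrast was not computed. The ratio was smaller in members than in comparison barcodes for all 25, whose values chose the genes there, with medians of 2.06 and 3.99. In cluster 3, ADGRL3, an adhesion receptor, had 179 CPM in the members of the cluster and 54.2 CPM in other members (3.31, 2.75 to 3.97), against 399 and 46.7 CPM in comparison barcodes (8.55). PPP2R2B, a subunit that directs the phosphatase PP2A to substrates, had 84.5 against 26.3 CPM in members (3.21), and the integrin ITGB8 80.8 against 34.5 CPM (2.34).

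In cluster 5, INHBA, the activin A subunit, had 245 against 79.1 CPM in members (3.09, 2.26 to 4.15), and the metalloprotease ADAMTS6 180 against 42.2 CPM (4.25). In cluster 2, HMGA2, a chromatin architectural protein, had 274 against 126 CPM (2.18, 1.93 to 2.46). In cluster 1, the secreted CHI3L1 had 68.8 against 46.0 CPM (1.495), while ISM2 (1.08, 0.833 to 1.41) and LCN2 (1.19, 0.886 to 1.599) had intervals that included 1. Over all barcodes, these 3 leading genes of cluster 3 had ratios near 1 between members and comparison barcodes. ADGRL3 stood at 73.3 against 76.6 CPM (0.957, 0.860 to 1.06), PPP2R2B at 35.2 against 36.0 CPM and ITGB8 at 41.6 against 38.4 CPM (1.085, 0.938 to 1.252). These CPM values do not follow the share of cluster 3, and no order of cell states is read from the share.

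**Figure D5:**
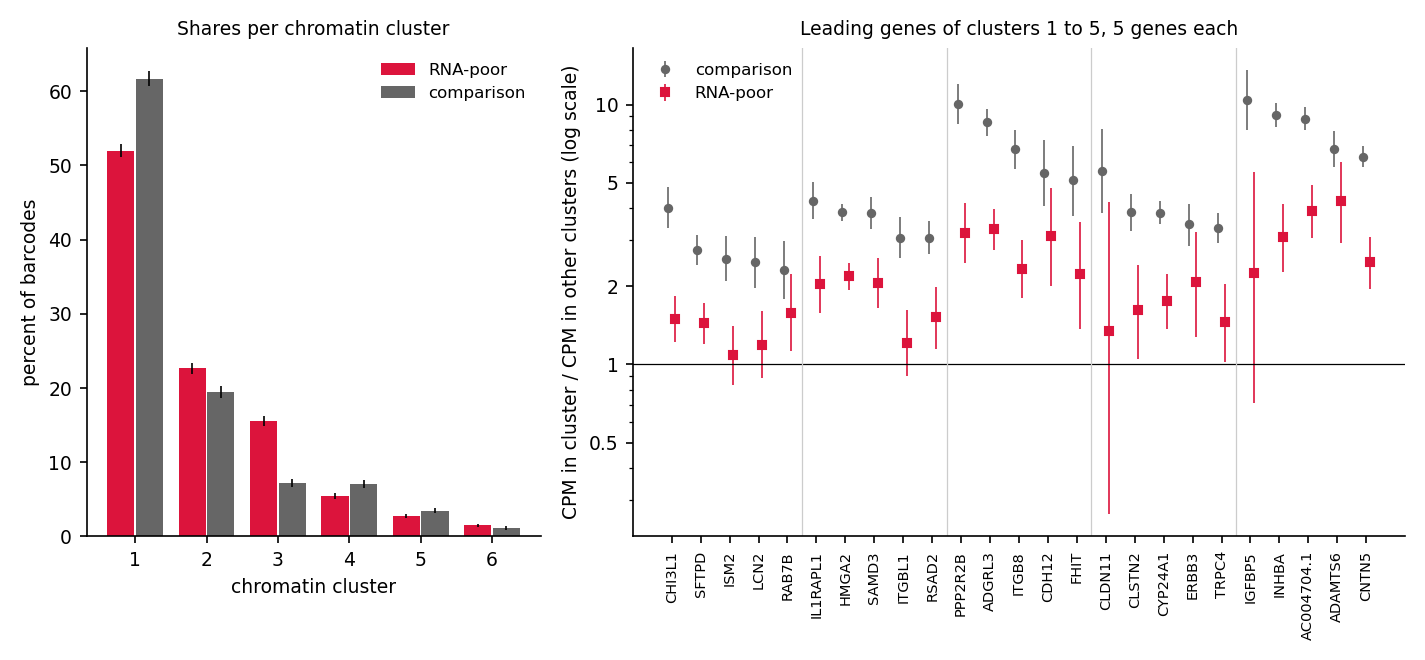
Left, percent of RNA-poor (red) and comparison (grey) barcodes in each chromatin cluster with 95% Clopper-Pearson intervals. Right, CPM of the 5 leading genes of clusters 1 to 5 in their cluster divided by that in the other clusters (log scale) with 95% intervals; all 25 red squares lie below the grey points of the same gene, and 20 have intervals above 1.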

How the data were processed

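The deposited values are raw counts, per the file headers: UMIs for 36601 genes and transposition counts for 215590 peaks, in barcodes not filtered to cells. The submitters' processing notes list the build GRCh38.p10 and, with no roles, MACS2, ArchR 1.0.3, Cell Ranger ARC 2.0.0 and Cell Ranger 2.0.0. The peak caller's settings are not given in these sources. The matrix totals 54494965 UMIs and 117898281 peak counts in 1 pooled sample.

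Members, gene lists and tests were chosen with earlier results of these data known. The 29 lists hold 712 entries, of which 711 matched a gene of the matrix. Counts were summed over the barcodes of a group and scaled to CPM without the 13 MT- genes. Ratios carry exact conditional binomial and shares exact Clopper-Pearson 95% intervals (scipy 1.17.1). With 1 pooled sample, nothing measures the spread between cultures. The text names up to 12 called genes in each direction (8 and 8 were called), list members that describe a list, MALAT1, NEAT1, and the extreme called peaks. Gene starts were both ends of the start interval in the feature table.

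Chromatin clusters used TF-IDF weights on 182179 peaks, 30 singular value components without depth components over a correlation of 0.75, 15 neighbours with Jaccard weights, and Leiden resolution 0.5 (leidenalg 0.10.2, seed 0). No doublet caller was run; 1 alternative left out the 8% of comparison barcodes with the most UMIs. TMM factors came from edgeR 4.0.16. The gene comparison was run on simulated Poisson counts drawn from 1 pooled profile, without spread between barcodes or free RNA. At the 1.5-fold limit it called 50 of 50 genes set 2-fold higher and 39 of 50 set 2-fold lower. Of 6835 unchanged genes it called 0. Other alternatives were the limits on barcodes, genes and peaks, the scaling, and matching on peak depth or cluster.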

Additional observations from a re-analysis of the deposited data

How the results depend on the processing

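No paired analysis was possible because the barcodes form 1 pooled sample without replicates. The cause of each change below was not tested, unless the setting itself changes the number of barcodes or genes compared. Genes at least 1.5-fold higher numbered 8, and 5 with members of at least 500 UMIs, with matched peak depth or without the deepest 8% of comparison barcodes, 4 against comparison barcodes under 2000 UMIs, 34 at no more than 10% MT- UMIs (4884 members, 1592 comparison barcodes), 161 with a floor of 10 UMIs and no CPM floor, and 0 at 2-fold. Genes lower numbered 8, and 1 against comparison barcodes under 2000 UMIs, 19 from 2000 peak counts, 3 from 500 peak counts, 71 at no more than 10% MT- UMIs, 5 under TMM, median-of-ratios scaling or MT- genes in the total, 217 with the low floor, and 0 at 2-fold. The 3 scalings moved all log2 ratios by 0.02 to 0.04. MALAT1 kept a ratio below 1, from 0.841 to 0.915, in every setting but those that take off the chromatin-poor profile.

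Taking off the chromatin-poor profile was chosen after seeing the data. It gave 20 higher and 114 lower genes at the median, 11 and 35 at the lower quartile, and 71 and 417 at the upper. The ribosomal protein median became −0.43, −0.22 and −0.76 (median, lower and upper quartile) and the respiratory chain median −0.38, −0.19 and −0.67. RPL39 became 0.694, 0.988 and 0.207, and HIST1H4C 0.788, 1.049 and 0.364. At the upper quartile AC012447.1 (0.510), HIST1H3B (0.863) and RMRP (0.855) also fell below 1, each with an interval that included 1.

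Higher peaks numbered 463, and 217 at no more than 10% MT- UMIs, 3247 with a floor of 20 events, 3 at 2-fold and 2 from 1000 events. Lower peaks numbered 462, and 305 against comparison barcodes under 2000 UMIs, 181, 1998, 2 and 0 in those 4 settings. The members' share at gene starts was 34.30% from 500 UMIs, 34.22% from 2000 peak counts and at no more than 10% MT- UMIs, 29.5% within 100 bases and 45.03% within 5000 bases. Cluster 3 had a ratio of 2.16, and 1.97, 2.92, 3.51, 2.81 and 1.38 by stratum, 1.81 when thinned and 2.38 at Leiden resolution 1.0. Cluster 2 became 0.808 from 10000 peak counts, cluster 4 1.32 from 2000, cluster 5 1.38, 1.16 and 1.83 from 3000, 5000 and 10000, and cluster 6 0.900 from 1000. With comparison barcodes also assigned by their neighbours, clusters 3, 4 and 5 had 2.29, 0.921 and 0.980. Leiden resolution 1.0 numbers its clusters anew. There other clusters shifted as well, with 1.61, 0.434, 0.368 and 0.529 for its clusters 1 to 4, 1.45 for its cluster 6 and 1.91 for its cluster 10. Free RNA under 50 UMIs and 50 peak counts had 23709 CPM of MALAT1 and 265244 CPM of ribosomal protein genes, and the chromatin-poor barcodes 5566 and 326789 CPM. The limits of 100 UMIs and 20 CPM were chosen, and genes below them were not compared.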
